A study of Mus musculus with 8 samples.

Results

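The genes described here are 45 components of BMP, activin and TGF-beta signaling, out of 24341 genes with a level in each of 8 pancreas buds. They were chosen by gene name, with earlier results of these data known, and comprise 12 ligands, 12 receptors, 8 Smads, 7 antagonists, 4 *Id* genes and the 2 *Smurf* genes. The buds came from E11.0 embryos of strain CD1 at about 40 somites. The 5 control buds are labelled WT. The methods state for the study in general that mutants were set against WT or heterozygous littermates, and whether a control bud was heterozygous is not given in the sources used here. The 3 buds called Lats1/2PanKO carried Pdx1Creearly;Lats1f/f;Lats2f/f, that is, floxed alleles of the Hippo pathway kinases *Lats1* and *Lats2* and a Cre recombinase driven by *Pdx1* regulatory sequence. The study describes a deletion in the progenitor epithelium of the pancreas. Other cells of a mutant bud are therefore taken to have kept both kinases, which was not tested here. Mesenchyme was pulled off each bud with forceps, and each bud gave a total RNA library of its own. The comparison asks what these signaling genes did in the bud when both kinases were deleted from its epithelium.

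Ligands of the TGF-beta superfamily bind pairs of type I and type II receptor kinases, which phosphorylate receptor Smads. BMP receptors act mainly through SMAD1, SMAD5 and SMAD9, activin and TGF-beta receptors mainly through SMAD2 and SMAD3, and both sets enter the nucleus with SMAD4, while SMAD6, SMAD7 and the SMURF ubiquitin ligases turn the pathway down. In the early pancreas, activin-type signals help to pattern the endoderm and BMP signals from neighbouring mesoderm affect which endoderm becomes pancreas or liver.

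Levels are FPKM, that is, fragment numbers corrected for the length of the transcript and for the reads mapped in the library, which allows genes to be compared with each other. The deleted genes were lower but not absent. *Lats1* was 15.6 ± 0.905 FPKM in WT buds (mean ± SD, n = 5) and 12.1 ± 1.87 in Lats1/2PanKO buds (n = 3), with every mutant bud below every WT bud, whereas *Lats2* was 13.8 ± 1.26 and 12.3 ± 1.15 FPKM and the groups overlapped. Neither passed the test over all genes (limma, adjusted p = 0.269 and 0.589). Between 16117 and 16982 genes were above 0 in a library. One fragment was worth 1.27 times as much FPKM in WT replicate 5 as in WT replicate 1, against 0.966 to 1.04 times in the others, which makes WT replicate 5 the shallowest library. The means of markers of several cell types differed between the genotypes. Of 20 epithelial markers 19 had a higher mean in Lats1/2PanKO buds, and their summed level was 598 to 1435 FPKM against 318 to 398 in WT buds. Of the 19 tested mesenchyme and mesothelium markers 17 had a lower mean (sums of 938 to 1241 against 1210 to 1374 FPKM), as did all 20 endothelial markers (158 to 236 against 211 to 355 FPKM). All 8 tested liver markers had a higher mean (170, 130 and 373 FPKM in mutant replicates 1 to 3 against 98.2 to 169 FPKM). All 10 listed liver markers were highest in mutant replicate 3. All 10 tested red blood cell markers also had a higher mean, but their mutant sums lay inside the WT range (7968 to 10171 against 2635 to 15772 FPKM). Other lists were mixed, with a higher mean in 6 of 10 leukocyte, 7 of 10 neural crest and nerve, and 3 of 5 stomach and intestine markers. No marker of these lists was at 0 in all libraries. In RNA from whole buds, fewer cells of a type and less RNA per cell cannot be told apart.

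Most of the signaling genes had a lower mean in Lats1/2PanKO buds, by a small amount, and none passed the test over all genes. Of the 45 members, 42 had a mean of at least 0.5 FPKM and were tested among 13777 genes. Of those 42, 37 had a difference below 0, or 88.1%, against a background of 53.1% of all tested genes. Their median difference was -0.16 on the log2(FPKM + 1) scale, where the median of all tested genes was -0.01. The number of members with an adjusted p under 0.05 was 0 by limma, against 0.0145% of all tested genes. At an unadjusted p under 0.05, 9 members were lower and 1 was higher, where the background was 4.99% lower and 6.29% higher. The 9 are *Bmp5*, *Tgfb2*, *Bmpr2*, *Tgfbr1*, *Tgfbr3*, *Smad6*, *Smad9*, *Id2* and *Id3*, and the 1 is *Acvr1b*. In 4 members, *Id2*, *Id3*, *Smad9* and *Tgfbr3*, all Lats1/2PanKO buds lay below all WT buds, a pattern of 3.06% of all tested genes, and 0 members lay above, a pattern of 4.46%. Without Lats1/2PanKO replicate 3 the count at an unadjusted p under 0.05 was 4, all lower, where 2.21% of all genes were lower. Since the genes were picked with earlier results in view, these counts describe the list and are not independent evidence of its direction.

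The promoter letters of 6 members are shown because their values carry the comparison. *Id3*, *Id2* and *Smad9* are among the genes whose groups did not overlap, *Id4* and *Acvr1b* had higher means in the mutant buds, and *Smad6* holds a rare Smad motif. RefSeq gave promoters of 300 bases, 250 before and 50 after the transcript start, for 32 of the 45 members. The sequences are from GRCm38.p6, 5′ to 3′ on the strand of the gene, and capitals mark the motif letters found. The motifs searched on both strands were CATTCC, the core of the site of the TEAD factors that YAP and TAZ bind, GTCTAGAC, the SMAD palindrome, GGCGCC, a GC-rich Smad site, and CAGAC, the short box of SMAD3 and SMAD4. None of these motifs contains another.
Id3, chr4:136143572-136143871, plus strand: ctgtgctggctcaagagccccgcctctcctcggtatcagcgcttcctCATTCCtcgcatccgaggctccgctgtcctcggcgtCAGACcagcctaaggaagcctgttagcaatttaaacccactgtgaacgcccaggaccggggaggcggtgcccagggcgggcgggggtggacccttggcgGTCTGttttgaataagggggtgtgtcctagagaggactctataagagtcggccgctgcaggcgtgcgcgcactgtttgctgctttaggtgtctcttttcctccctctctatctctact
Id2, chr12:25096043-25096342, minus strand: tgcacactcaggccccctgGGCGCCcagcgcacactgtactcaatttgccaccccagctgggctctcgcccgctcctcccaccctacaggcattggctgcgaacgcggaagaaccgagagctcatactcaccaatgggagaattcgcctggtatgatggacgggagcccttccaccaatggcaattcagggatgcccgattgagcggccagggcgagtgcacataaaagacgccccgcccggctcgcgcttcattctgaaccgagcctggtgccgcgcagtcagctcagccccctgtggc
Id4, chr13:48260866-48261165, plus strand: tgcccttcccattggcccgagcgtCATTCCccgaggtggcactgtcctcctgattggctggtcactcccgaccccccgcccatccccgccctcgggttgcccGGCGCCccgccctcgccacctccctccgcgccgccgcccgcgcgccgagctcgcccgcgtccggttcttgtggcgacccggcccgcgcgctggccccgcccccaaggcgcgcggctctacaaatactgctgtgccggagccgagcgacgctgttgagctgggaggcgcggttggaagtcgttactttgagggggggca
Smad6, chr9:64022010-64022309, minus strand: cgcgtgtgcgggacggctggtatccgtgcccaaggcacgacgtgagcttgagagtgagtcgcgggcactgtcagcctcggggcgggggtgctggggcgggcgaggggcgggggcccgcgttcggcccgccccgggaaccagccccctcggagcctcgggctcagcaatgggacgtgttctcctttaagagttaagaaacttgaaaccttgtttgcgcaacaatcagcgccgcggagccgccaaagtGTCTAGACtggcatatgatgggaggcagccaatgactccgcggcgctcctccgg
Smad9, chr3:54755332-54755631, plus strand: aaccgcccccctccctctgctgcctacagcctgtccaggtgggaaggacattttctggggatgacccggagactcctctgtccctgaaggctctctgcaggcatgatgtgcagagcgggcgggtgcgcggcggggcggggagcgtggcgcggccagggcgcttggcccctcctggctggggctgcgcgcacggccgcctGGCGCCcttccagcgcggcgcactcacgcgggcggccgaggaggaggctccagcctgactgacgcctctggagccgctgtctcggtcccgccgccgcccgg
Acvr1b, chr15:101173822-101174121, plus strand: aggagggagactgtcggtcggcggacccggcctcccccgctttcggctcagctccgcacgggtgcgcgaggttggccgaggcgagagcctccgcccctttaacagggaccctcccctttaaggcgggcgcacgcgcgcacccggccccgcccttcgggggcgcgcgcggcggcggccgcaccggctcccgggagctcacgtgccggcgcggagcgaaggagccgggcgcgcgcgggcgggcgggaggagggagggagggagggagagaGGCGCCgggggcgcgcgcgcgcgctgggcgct

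CATTCC stood 203 bases before the start in *Id3* and 226 bases before it in *Id4*, the only members whose window held it. It was in 5.41% of 37 member promoters and in 14.7% of all 32851 promoters. GTCTAGAC began 4 bases before the start of *Smad6* and ran across it. No other member window held it, and 0.213% of all promoters did. GGCGCC was in 12 members, or 35.1% of their promoters, against 11.9% of all promoters, and among the sequences shown it lies in *Id2*, *Id4*, *Smad9* and *Acvr1b*. Member promoters were richer in G and C, with a median of 67.0% against 52.7%. CAGAC was in 45.9% and 49.6% of promoters, at 2 places in *Id3* (167 and 68 bases before the start). The letters were present in genes whose means differed in either direction: *Id3* and *Id4* both held CATTCC, and *Id2* and *Acvr1b* both held GGCGCC. A match is a run of letters and was not tested as a binding site.

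The levels of the members ran over more than 3 orders of magnitude, and within each class a few genes made up most of the sum. In WT buds 12 members were at 20 FPKM or above, 19 between 5 and 20, 8 between 1 and 5, and 6 below 1 FPKM.

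**Figure D1:**
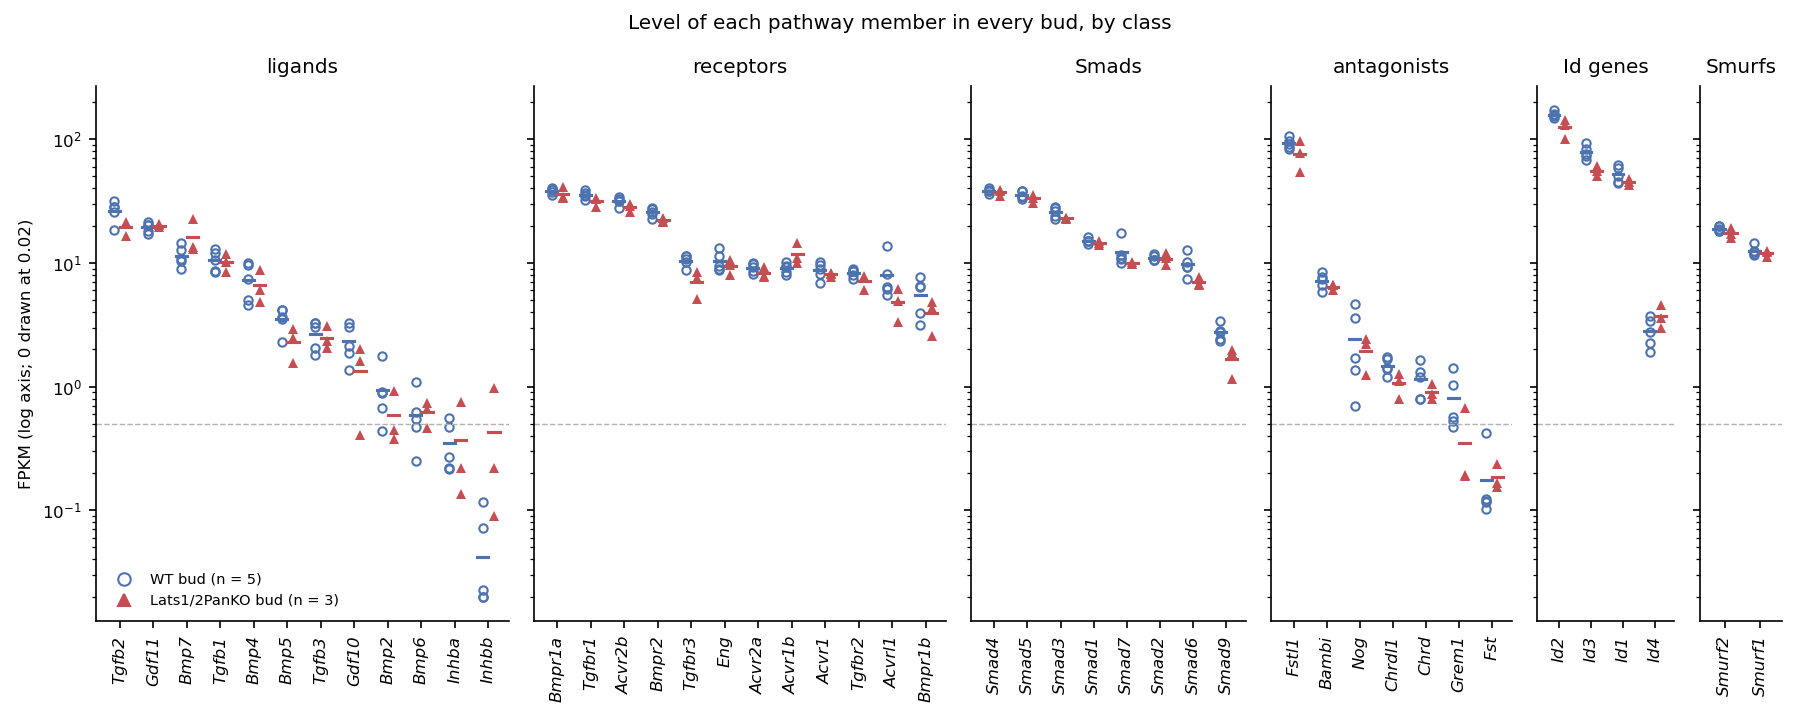
FPKM of each member in every bud on a log axis, by class and in order of the WT mean. Circles are the 5 WT buds and triangles the 3 Lats1/2PanKO buds, short lines are means, values of 0 are drawn at 0.02, and the dashed line is the 0.5 FPKM a tested gene must reach on average; *Id2* is the most abundant member, at 158 FPKM in WT buds, and *Inhbb* the least abundant.

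Among the ligands, *Tgfb2* was the most abundant. It encodes TGF-beta 2 and made up 66.8% of the summed level of the 3 TGF-beta genes in WT buds. *Tgfb2* measured 28.3, 31.7, 18.5, 25.6 and 28.4 FPKM in WT replicates 1 to 5, and 20.6, 21.3 and 16.5 FPKM in Lats1/2PanKO replicates 1 to 3. Every mutant bud lay below 4 of the WT buds, but WT replicate 3 was as low as they were, so the groups overlapped. The difference was -0.41 ± 0.16 (SE; limma, adjusted p = 0.391). *Tgfb1*, the form abundant in immune and vascular cells, was 8.38 to 12.9 FPKM in WT and 8.49 to 11.8 FPKM in Lats1/2PanKO buds. *Tgfb3* was 2.68 ± 0.701 and 2.49 ± 0.555 FPKM. The lower mean was thus seen in *Tgfb2* and was small beside the spread in the other TGF-beta genes.

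The BMP ligands did not differ in one direction. *Bmp7*, an epithelial BMP in many developing organs, was the most abundant and made up 48.1% of their sum in WT buds. It measured 10.8, 8.85, 14.4, 10.3 and 12.8 FPKM in WT buds and 13.4, 12.9 and 22.5 FPKM in Lats1/2PanKO buds. Replicates 1 and 2 of the mutants lay within the WT range and replicate 3 lay far above it. The difference was 0.45 ± 0.20 (adjusted p = 0.448), and 0.20 without Lats1/2PanKO replicate 3. *Bmp5*, a close relative of *Bmp7*, differed the other way. It measured 3.63, 4.15, 3.49, 2.28 and 4.14 FPKM in WT buds against 2.48, 2.90 and 1.56 FPKM, with only WT replicate 4 among the mutant values. Its difference was -0.46 ± 0.19 (adjusted p = 0.424), and -0.28 without replicate 3 of the mutants. *Bmp4*, the mesodermal BMP of the foregut region, was 7.28 ± 2.50 FPKM in WT and 6.58 ± 2.05 in mutant buds, *Bmp2* was 0.438 to 1.76 and 0.380 to 0.926, and *Bmp6* was 0.594 ± 0.311 and 0.622 ± 0.145. The 5 genes summed to 23.8 ± 1.62 FPKM in WT and 26.4 ± 3.19 in Lats1/2PanKO buds, and these sums overlapped.

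*Gdf11*, a ligand that signals through activin receptors and restrains endocrine progenitor number in the pancreas, was the steadiest ligand, at 17.2 to 21.3 FPKM in WT and 19.4 to 20.5 FPKM in Lats1/2PanKO buds. *Gdf10* (also called BMP3b) was 2.34 ± 0.804 and 1.34 ± 0.839 FPKM, and its difference of -0.55 was -0.22 without Lats1/2PanKO replicate 3, in which it was 0.402 FPKM. The activin subunit genes were close to the bottom of the range. *Inhba* was 0.215 to 0.560 FPKM in WT and 0.135 to 0.757 FPKM in mutant buds, and *Inhbb* was 0 to 0.117 FPKM in WT buds and 0.219, 0.091 and 0.971 FPKM in the mutants. Both fell under the minimum for testing. The 10 tested ligands had a median difference of -0.09, with 7 below 0, and the median was 0.01 without Lats1/2PanKO replicate 3.

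Receptor levels were led by type I receptors of both branches. *Bmpr1a*, a BMP type I receptor, measured 40.3, 38.6, 39.8, 37.3 and 35.4 FPKM in WT buds and 33.97, 41.3 and 33.4 FPKM in Lats1/2PanKO buds, so that mutant buds lay on both sides of the WT range. *Tgfbr1*, the TGF-beta type I receptor, was 35.7 ± 2.45 and 31.5 ± 2.57 FPKM, and the WT ranges of these 2 genes overlapped. The difference of *Tgfbr1* was -0.18 ± 0.08 (adjusted p = 0.440), and -0.11 without Lats1/2PanKO replicate 3. *Acvr2b*, an activin type II receptor, followed at 31.6 ± 2.38 and 28.1 ± 2.22 FPKM.

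Among the receptors only *Tgfbr3* had groups that did not overlap. It encodes betaglycan, a co-receptor that presents TGF-beta 2 to its receptors and, with inhibin, blocks activin. *Tgfbr3* (chr5:107106570-107289595) measured 11.3, 10.1, 8.71, 10.8 and 11.3 FPKM in WT buds and 7.50, 8.36 and 5.11 FPKM in Lats1/2PanKO buds. All mutant buds were below all WT buds, with 0.344 FPKM between the lowest WT and the highest mutant bud. The difference was -0.53 ± 0.15 (adjusted p = 0.259), and -0.35 without Lats1/2PanKO replicate 3. *Bmpr2*, the BMP type II receptor, was 27.1, 25.6, 24.6, 22.7 and 27.9 FPKM in WT buds against 23.2, 21.96 and 21.3 FPKM, with only WT replicate 4 inside the mutant range. Its difference was -0.20 ± 0.08 (adjusted p = 0.395). Together the type II receptors, *Bmpr2*, *Acvr2a*, *Acvr2b* and *Tgfbr2*, summed to 71.0 to 78.7 FPKM in WT buds and to 62.2 to 67.4 FPKM in mutant buds. These ranges did not overlap, although those of each gene did. The sums of the type I receptors (98.5 to 114 and 89.8 to 103 FPKM) and of the co-receptors (17.5 to 24.4 and 13.1 to 19.0 FPKM) overlapped. No background for such sums was computed.

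*Acvr1b*, which encodes the activin type I receptor ALK4, was the only receptor with a higher mean in the mutants. It measured 9.44, 10.1, 8.42, 9.28 and 7.94 FPKM in WT buds and 10.9, 9.94 and 14.4 FPKM in Lats1/2PanKO buds. Replicates 1 and 3 of the mutants were above all WT buds, and replicate 2 was just under WT replicate 2. The difference was 0.33 ± 0.13 (adjusted p = 0.376), and 0.19 without Lats1/2PanKO replicate 3. *Acvrl1*, the endothelial type I receptor ALK1, lies next to it on chromosome 15, 28731 bases apart, and differed the other way, at 7.97 ± 3.33 FPKM in WT and 4.79 ± 1.42 in mutant buds. Its difference of -0.59 ± 0.27 (adjusted p = 0.467) was the most negative of the members and became -0.39 without Lats1/2PanKO replicate 3, and -0.40 without WT replicate 5, where it reached 13.7 FPKM. *Eng*, the endothelial co-receptor endoglin, was 10.4 ± 1.87 and 9.38 ± 1.30 FPKM. The summed endothelial markers were highest in WT replicate 5 (355 FPKM) and lowest in Lats1/2PanKO replicate 3 (158 FPKM), and the part of endothelial RNA in the *Acvrl1* values was not tested. Of the other receptors, *Bmpr1b* was 5.53 ± 1.91 and 3.90 ± 1.17 FPKM, *Tgfbr2* 8.32 ± 0.623 and 7.13 ± 0.954, *Acvr1* 8.75 ± 1.28 and 8.06 ± 0.362, and *Acvr2a* 9.16 ± 0.764 and 8.23 ± 0.841. Over the 12 receptors, 11 were below 0, with a median difference of -0.17, or -0.11 without Lats1/2PanKO replicate 3.

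**Figure D2:**
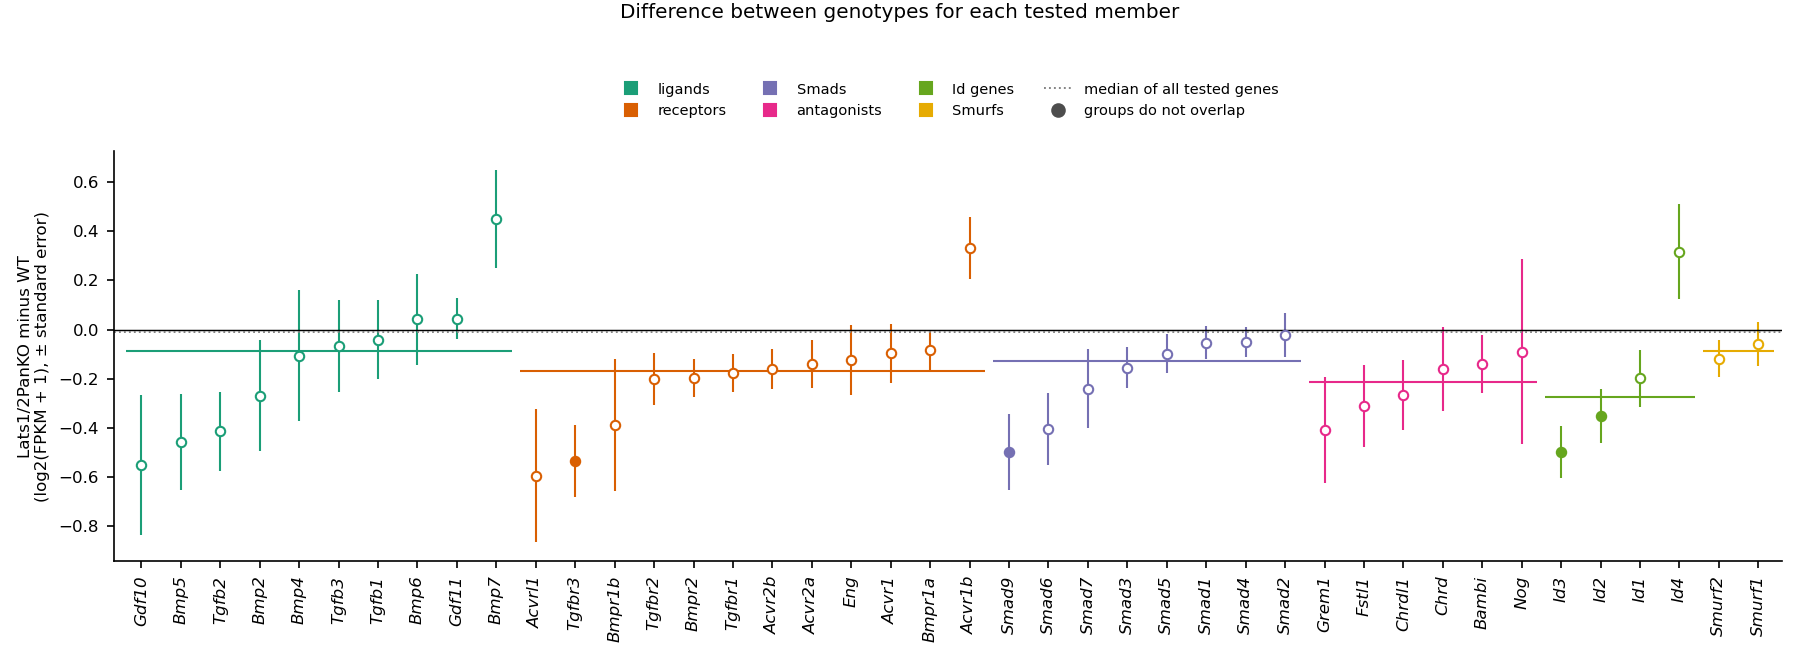
Difference between Lats1/2PanKO and WT buds for the 42 tested members, on the log2(FPKM + 1) scale with the standard error of the fit, by class and in order of size. Coloured lines are class medians, the dotted line is the median of all tested genes, and filled points are the 4 members whose groups did not overlap; *Bmp7*, *Acvr1b* and *Id4* stand above 0 while 37 members lie below it.

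All 8 Smads had a lower mean in Lats1/2PanKO buds, with a median difference of -0.13. *Smad4*, the shared partner, was the most abundant and barely differed, at 36.3, 39.1, 38.4, 37.7 and 40.2 FPKM in WT buds and 34.4, 38.6 and 38.1 FPKM in mutant buds. Its difference of -0.05 ± 0.06 (adjusted p = 0.815) had the smallest error of the members. Mutant replicates 2 and 3 lay inside the WT range and replicate 1 below it. The BMP Smads *Smad5* (35.6 ± 2.52 and 33.2 ± 2.63 FPKM) and *Smad1* (15.0 ± 0.673 and 14.4 ± 0.545 FPKM) overlapped between groups, as did *Smad2*, at 10.6 to 11.8 and 9.58 to 12.03 FPKM.

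*Smad9*, the least abundant of the BMP Smads, was the Smad whose groups separated. *Smad9* (chr3:54755582-54801269) measured 2.74, 3.41, 2.34, 2.83 and 2.44 FPKM in WT buds and 1.97, 1.88 and 1.16 FPKM in Lats1/2PanKO buds, all below the lowest WT bud. The difference was -0.50 ± 0.15 (adjusted p = 0.3004), and -0.35 without Lats1/2PanKO replicate 3. *Smad3*, which carries activin and TGF-beta signals, was 23.8, 22.5, 27.7, 26.2 and 28.4 FPKM in WT buds and 23.1, 22.5 and 23.1 FPKM in mutant buds. The mutant buds sat close together at or just under the low end of the WT range, next to WT replicates 1 and 2. The difference was -0.16 ± 0.08 (adjusted p = 0.540).

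The inhibitory Smads are feedback targets as well as brakes of the pathway. *Smad6*, which blocks BMP signals, measured 9.22, 10.1, 7.39, 9.30 and 12.8 FPKM in WT buds and 7.68, 6.67 and 6.76 FPKM in mutant buds. WT replicate 3 was the only WT bud below a mutant bud. Its difference was -0.40 ± 0.15 (adjusted p = 0.354), and -0.31 without WT replicate 5. *Smad7*, which blocks both branches, was 9.94 to 17.6 FPKM in WT buds (median 10.9) and 9.80 to 10.1 FPKM in mutant buds, and its difference moved from -0.24 to -0.11 without WT replicate 5. The sum of all 8 Smads was 146 to 159 FPKM in WT buds and 135 to 139 FPKM in Lats1/2PanKO buds, and no background for this sum was computed.

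The antagonists were dominated by *Fstl1*, a secreted follistatin-like protein made mainly by mesenchymal cells, with 87.5% of their sum in WT buds. *Fstl1* measured 96.1, 90.7, 86.1, 82.7 and 106 FPKM in WT buds and 76.9, 97.3 and 53.9 FPKM in Lats1/2PanKO buds. Replicates 1 and 3 of the mutants lay below the WT range and replicate 2 inside it. The difference of -0.31 ± 0.17 (adjusted p = 0.538) was -0.09 without Lats1/2PanKO replicate 3. The summed mesenchyme and mesothelium markers had the same order in the mutants, at 1067, 1241 and 938 FPKM in replicates 1 to 3, and their part in the *Fstl1* values was not tested.

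Apart from *Bambi*, the other antagonists had WT means under 3 FPKM. *Grem1*, a secreted BMP antagonist, was 1.04, 0.531, 0.471, 0.565 and 1.41 FPKM in WT buds and 0.672, 0.188 and 0.191 FPKM in mutant buds. Replicate 1 of the mutants was inside the WT range and the others below it, for a difference of -0.41 ± 0.22 (adjusted p = 0.538). *Chrdl1*, a chordin-like BMP antagonist, was 1.74, 1.38, 1.66, 1.40 and 1.19 FPKM in WT buds and 1.27, 0.799 and 1.11 FPKM in mutant buds, with only mutant replicate 1 inside the WT range. Its difference was -0.27 ± 0.14 (adjusted p = 0.538). *Bambi*, a decoy receptor and BMP target, was 7.20 ± 1.01 and 6.39 ± 0.315 FPKM, and *Chrd* was 1.15 ± 0.364 and 0.903 ± 0.137. *Nog*, which encodes the BMP trap noggin, was the most variable tested member in WT buds (coefficient of variation 69.2%), at 0.697 to 4.68 FPKM, and its mutant buds at 1.24 to 2.41 FPKM fell inside that range. *Fst*, the activin trap follistatin, was under the minimum for testing, at 0.102 to 0.421 FPKM in WT and 0.155 to 0.236 in mutant buds. All 6 tested antagonists had a difference below 0, with a median of -0.21, so that inhibitors of the pathway and its receptors and Smads lay on the same side.

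The *Id* genes encode helix-loop-helix proteins that bind E proteins and keep them off DNA, and *Id1*, *Id2* and *Id3* are standard readouts of BMP signaling. With *Fstl1* they were the most abundant genes of the list, and *Id2*, *Id3* and *Id1* stood at the 96.6th, 92.7th and 88.5th percentile of the WT means of all tested genes. *Id3* (chr4:136143822-136145392) measured 73.4, 93.3, 75.6, 83.2 and 68.4 FPKM in WT buds and 54.8, 61.0 and 50.3 FPKM in Lats1/2PanKO buds. Every mutant bud was below every WT bud, and the mean was lower by 29.7%, with a difference of -0.50 ± 0.11. It had the smallest p of the members and still did not pass over all genes (limma, adjusted p = 0.150). Leaving out any 1 library gave a difference between -0.57 and -0.43, and with limma's library weights *Id3* did pass (adjusted p = 0.0291, where the alternatives ranged from that value to 0.467). Among mutant buds *Id3*, *Id2* and *Tgfbr3* had the order of the summed mesenchyme and mesothelium markers (1067, 1241 and 938 FPKM). *Smad9* did not have this order, while *Id1*, *Tgfb2*, *Bmp5* and *Tgfbr1*, among others, did, and 3 buds allow few orders. The epithelial sum ran in the opposite order (696, 598 and 1435 FPKM). Among WT buds *Id3* was highest in replicate 2. In that bud the mesenchyme and mesothelium sum was the lowest of the WT buds (1210 FPKM). The mean log2(FPKM + 1) of the tested markers of that list was instead the highest there (4.69, against 4.52 to 4.65 in the other WT buds). The part of cell types in these values was not tested.

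*Id2* (chr12:25093799-25096092) measured 153, 157, 147, 171 and 161 FPKM in WT buds and 130, 144 and 99.998 FPKM in Lats1/2PanKO buds. The groups did not overlap, though mutant replicate 2 came within 3.11 FPKM of the lowest WT bud. The difference was -0.35 ± 0.11 (adjusted p = 0.304), and -0.20 without Lats1/2PanKO replicate 3. *Id1* was 50.3, 61.4, 45.5, 58.8 and 44.2 FPKM in WT buds and 44.8, 47.6 and 42.2 FPKM in mutant buds. Mutant replicates 1 and 2 lay within the WT range and replicate 3 below it, and the difference was -0.20 ± 0.12 (adjusted p = 0.571).

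*Id4* was much less abundant and differed in the other direction. It measured 2.24, 3.73, 2.78, 3.41 and 1.89 FPKM in WT buds and 3.58, 2.97 and 4.59 FPKM in Lats1/2PanKO buds. Only replicate 3 of the mutants was above the WT range, and the difference was 0.32 ± 0.19 (adjusted p = 0.592), or 0.19 without that bud. The table gives *Id4* a locus of 219806 bases, where the GENCODE gene has 4799, so its level per length is uncertain. The 4 *Id* genes summed to 271 to 316 FPKM in WT buds and to 197 to 256 FPKM in mutant buds, without overlap. *Id2* made up 54.1% of the WT sum, and *Id2* and *Id3* were already apart, so the sum adds little to them. No background for such sums was computed. The median difference of the 4 genes was -0.28, or -0.18 without Lats1/2PanKO replicate 3.

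**Figure D3:**
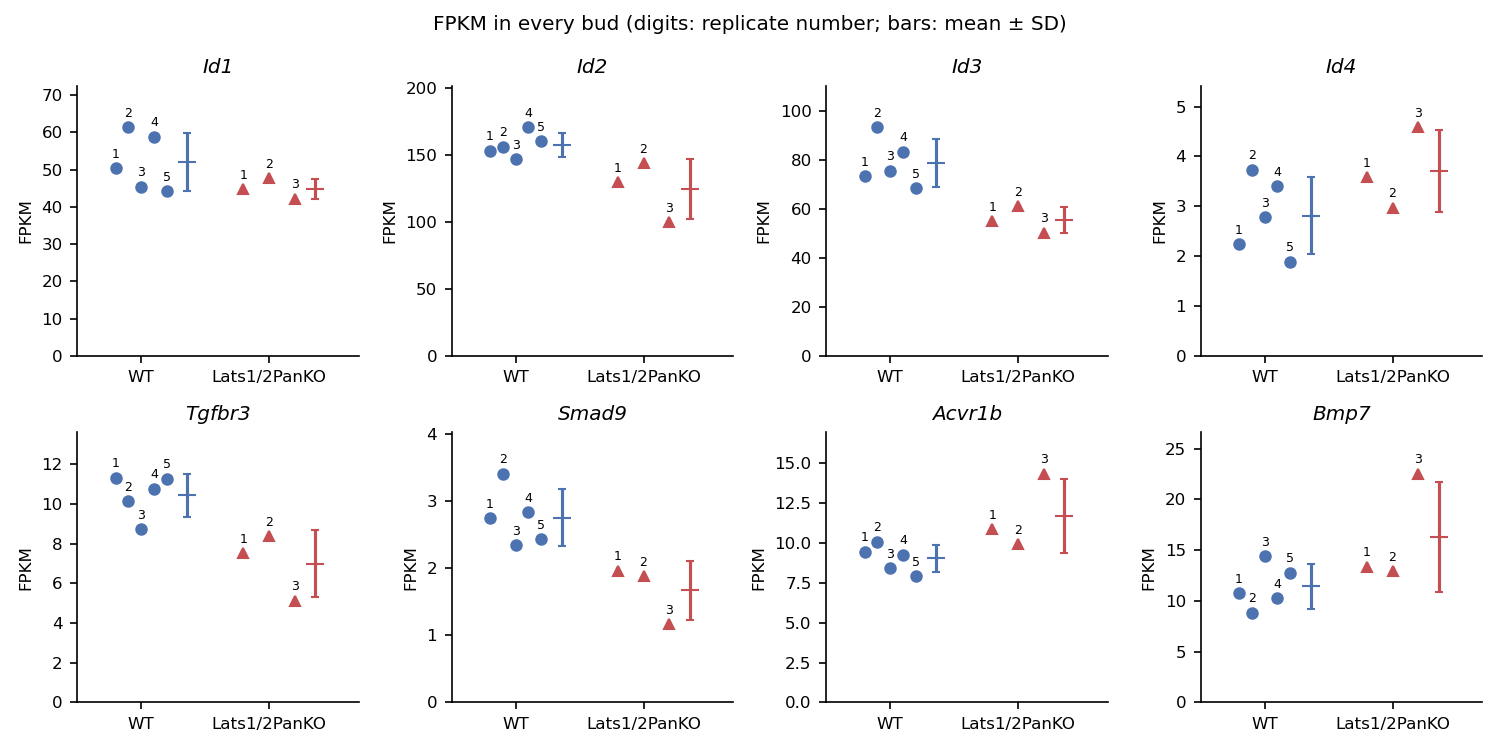
FPKM of the 4 *Id* genes, *Tgfbr3*, *Smad9*, *Acvr1b* and *Bmp7* in every bud, on axes that start at 0. Circles are WT and triangles Lats1/2PanKO buds, digits give the replicate number, and bars the mean ± SD; in *Id2*, *Id3*, *Tgfbr3* and *Smad9* all triangles lie below all circles, and in *Acvr1b*, *Id4* and *Bmp7* replicate 3 of the mutants is the highest bud.

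The *Smurf* genes, whose products mark Smads and receptors for degradation, differed little. *Smurf2* measured 19.9, 18.2, 18.0, 19.7 and 18.9 FPKM in WT buds and 16.0, 19.0 and 17.1 FPKM in Lats1/2PanKO buds, a difference of -0.12 ± 0.07 (adjusted p = 0.604), with mutant replicates 1 and 3 below the WT range. *Smurf1* was 12.1, 12.4, 11.8, 11.6 and 14.6 FPKM in WT buds and 12.4, 12.3 and 11.1 FPKM in mutant buds, a difference of -0.06 ± 0.09 (adjusted p = 0.855). Apart from WT replicate 5, the WT buds lay among the mutant values.

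A single mutant bud, Lats1/2PanKO replicate 3, was the lowest of the 8 buds in 19 of the 42 tested members, or 45.2%, where it was the lowest in 21.4% of all tested genes. WT replicate 5 was the highest in 16 members, or 38.1%, where it was the highest in 22.4% of all tested genes. For WT replicate 2 this was 11 members, or 26.2%, against 10.5% of all tested genes. Without Lats1/2PanKO replicate 3, 35 members were below 0, at a median of -0.11 where all genes had -0.01. Without WT replicate 5, 37 were below 0 at a median of -0.14. Leaving out a bud cannot make separated groups overlap, so *Id2*, *Id3*, *Smad9* and *Tgfbr3* had to stay apart without Lats1/2PanKO replicate 3. *Smad7* and *Acvr2a* joined them. The share of all tested genes apart in that setting was not computed, so no excess is read from it. Replicate 3 of the mutants was also the bud with the highest epithelial sum (1435 FPKM) and the lowest mesenchymal and endothelial sums (938 and 158 FPKM). The part of this in the members' values was not tested.

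**Figure D4:**
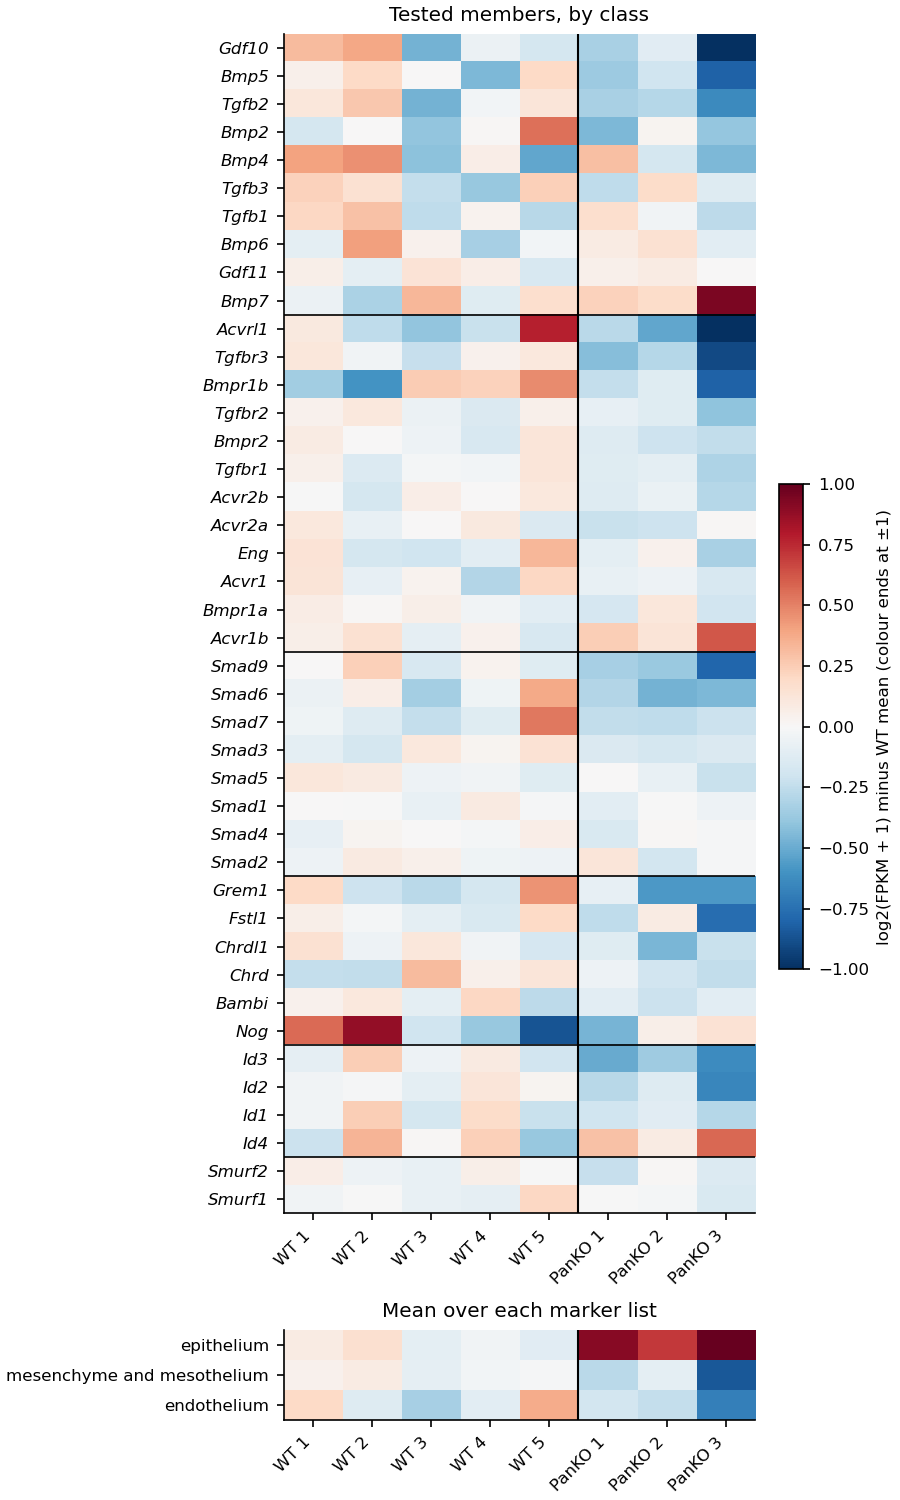
Each tested member (upper panel, by class) and the mean of each marker list (lower panel) in the 8 buds, as log2(FPKM + 1) minus the mean of the WT buds, with colour ending at 1 in each direction. Blue cells gather in the column of Lats1/2PanKO replicate 3, the lowest bud in 19 of 42 members, where *Bmp7*, *Acvr1b* and *Id4* are red, and WT replicate 5 is the highest bud in 16 members, among them *Acvrl1*, *Smad6* and *Smad7*.

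Members also varied among WT buds, to a degree that was ordinary for their level. The coefficient of variation over the 5 WT buds was above the median of the 500 tested genes nearest in level for 22 of 42 members. It was lowest in *Smad4* (3.89%, against 8.12% in those genes), *Smad1* (4.48% against 10.7%) and *Smurf2* (4.60% against 9.38%). High values were found in ligands, antagonists and endothelial genes, for example *Nog* (69.2% against 24.4%), *Acvrl1* (41.8% against 12.9%) and *Bmp4* (34.4% against 13.9%). *Bmp4*, *Gdf10* and *Nog* shared their WT pattern, chosen after their values were seen. *Bmp4* was 9.55 and 9.96 FPKM in WT replicates 1 and 2 and 4.55 to 7.35 FPKM in the other WT buds, and *Nog* was 3.59 and 4.68 FPKM in those replicates and 0.697 to 1.69 FPKM in the others. WT replicates 1 and 2 stood above the other WT buds in 6 members, or 14.3%, and in 13.7% of all tested genes, which is near the background.

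Other genes of the pathway were read from a list of 108, of which 70 passed the minimum. At an unadjusted p under 0.05, the mutant buds had 6 at a higher and 5 at a lower level, and 0 had an adjusted p under 0.05, where 6.29% of all tested genes were higher and 4.99% lower at that unadjusted p. Their median difference was -0.06, or -0.02 without Lats1/2PanKO replicate 3 and -0.03 without WT replicate 5, beside -0.01 in all tested genes. Of the 70, 40 were below 0, or 57.1%, near the 53.1% of all tested genes. *Ctgf*, a gene that both TGF-beta and YAP activate, was 2.77 to 4.32 FPKM in WT buds and 7.90 to 15.8 FPKM in Lats1/2PanKO buds, a difference of 1.29 ± 0.22 (adjusted p = 0.109). *Ltbp1*, which stores latent TGF-beta in the matrix, was 15.1 to 19.8 FPKM in WT and 11.2 to 13.2 FPKM in mutant buds (-0.42 ± 0.10, adjusted p = 0.197). *Cdkn1a*, the cell cycle inhibitor p21, was 3.62 ± 0.403 and 8.22 ± 3.87 FPKM (0.92 ± 0.23, adjusted p = 0.209, or 0.60 without Lats1/2PanKO replicate 3).

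The groups did not overlap in those 3 genes, in *Dlx5*, a BMP-responsive homeobox gene that was 0 to 0.707 FPKM in WT and 1.11 to 1.601 FPKM in mutant buds (0.69 ± 0.20, adjusted p = 0.267), or in *Crim1*, a transmembrane BMP-binding protein, at 4.51 to 5.91 and 3.86 to 4.08 FPKM (-0.29 ± 0.10, adjusted p = 0.344). The sixth such gene was *Tab2*, an adaptor of the kinase TAK1. With 3 above and 3 below, these compare with 4.46% and 3.06% of all tested genes. *Nedd4l*, a ubiquitin ligase that acts on SMAD2 and SMAD3, was 5.39 ± 0.543 and 8.68 ± 2.52 FPKM (0.57 ± 0.16, adjusted p = 0.269). *Nbl1*, a secreted BMP antagonist, was 0.395 ± 0.316 and 1.10 ± 0.397 FPKM (0.60 ± 0.21, adjusted p = 0.335), and *Zfp423*, a partner of BMP Smads, was 25.8 ± 2.50 and 20.1 ± 3.88 FPKM (-0.36 ± 0.13, adjusted p = 0.338, or -0.20 without Lats1/2PanKO replicate 3). By list, 15 of 26 other intracellular regulators had a difference above 0 (median 0.01), where 13 of 20 other extracellular modulators had a difference below 0 (median -0.26, or -0.09 without Lats1/2PanKO replicate 3). Of the 9 tested BMP response genes 6 were below 0 (median -0.10, or 0.10 without Lats1/2PanKO replicate 3), as were 6 of 9 TGF-beta and activin response genes, 2 of 4 other ligands and 2 of 2 other co-receptors.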

How the data were processed

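Total RNA from 8 pancreas buds (35 ng each) was sequenced after depletion of ribosomal RNA. The submitters' processing notes name FastQC, cutadapt 1.12, TopHat2 2.1.0 and Cuffdiff 2.2.1 with build mm10, which is GRCm38. The authors deposited FPKM per gene. The methods state quantile normalization, but the columns do not share a distribution, and the values were used as deposited. FPKM hold no counts, so no count model and no interval for counting error is given, and the relative depth was read from the low values of the table. No pair of libraries was identical.

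The genes that averaged 0.5 FPKM or more were compared with limma 3.58.1 in R 4.3.3 on log2(FPKM + 1) values, allowing the prior variance to follow the mean, with Benjamini-Hochberg adjustment over all 13777 genes at a threshold of 0.05. The added 1 FPKM makes differences understate the change of low genes. The script was tested on simulated data. Cuffdiff, which the study used, needs reads. According to the study each library came from an individual embryo.

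The members and the lists were chosen with earlier results of these data known. Values in every bud are given, per class, for the 3 members with the smallest p, the most abundant member, those without overlap, all *Id* and *Smurf* genes, and, for other pathway genes, up to 8 with the smallest p are named. *Tab2* and values of single buds beyond this rule were picked after they were seen. Promoters are from RefSeq (GRCm38.p6), gene spans in the text come from the deposited table and count from 1, and *Id4* was compared with GENCODE M21. Promoters of *Acvrl1*, *Bambi*, *Bmp2*, *Bmp7*, *Chrdl1*, *Fst*, *Id1*, *Nog*, *Smad2*, *Smad4*, *Smad7*, *Tgfb3* and *Tgfbr3* were not used here. Other settings tried were 0.1 FPKM added before the logarithm, a higher minimum (2 FPKM) or none, rescaling by quantiles or by median ratios, library weights, no variance trend, a block for replicate number, and leave-one-out fits. Plots were made in Python 3.11.15 (matplotlib 3.10.9).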

Additional observations from a re-analysis of the deposited data

Results flagged for a closer look

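In 3 of the 45 members a single WT bud stood apart from the other 4 by Dixon's criterion, which chance meets in about 1 of 20 groups. *Smad7* was 17.6 FPKM in WT replicate 5, where the next highest WT bud was at 11.5 FPKM. *Smurf1* was 14.6 FPKM in the same bud, where the next was at 12.4 FPKM. *Fst* was 0.421 FPKM in WT replicate 2, where the next was at 0.124 FPKM, all of them low values.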

How the results depend on the processing

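No member passed the threshold under any alternative but library weights, where 1 did, *Id3*, among 174 genes called. The members at an unadjusted p under 0.05 numbered 10, and 4 to 13 with each library left out, with 6 when WT replicate 1 or WT replicate 5 was dropped and 4 when Lats1/2PanKO replicate 3 was. The share of all tested genes lower at that p moved too. It was 4.99% with all buds, 3.80% and 4.81% without WT replicates 1 and 5, and 2.21% and 6.49% without Lats1/2PanKO replicates 3 and 2. The lower members numbered 9 with all buds, 5 and 6 without those WT buds, and 4 and 11 without those mutant buds. Members whose groups did not overlap numbered 4, but 7 after quantile normalization and 4 to 9 with a library left out (8, 9 and 7 without WT replicates 2, 3 and 4, and 9 and 8 without Lats1/2PanKO replicates 1 and 2). With fewer buds in a group its range is narrower, which makes room for such calls. The share of all tested genes was not computed in these settings, so the counts have no background and describe the members only. The difference of *Smurf1* was 0.01 with library weights (0.00638), and that of *Smad4* 0.000738 without Lats1/2PanKO replicate 1 (range -0.079 to 0.000738). Members below 0 numbered 33 with library weights, 32 of 36 with the higher minimum, and 34 to 38 with a library left out. Of all tested genes 52.5%, 54.8% and 52.5% to 53.2% were below 0 in those settings. With the replicate number as a block, the median of the antagonists was -0.31 and 11 members were at an unadjusted p under 0.05. Of these 10 were lower, where 4.37% of all tested genes were. Deviations of same-numbered buds from their group means correlated at 0.0855, -0.0969 and 0.0685, so no pairing by number was seen. Whether such buds shared a litter or a batch was not tested. Another 167 values of whole comparisons and 347 of single genes were taken as unchanged. For a median this meant a move smaller than its spread over WT buds, and for a single gene the same sign and side of the threshold. For a count it was a loose rule, which allowed a change in proportion as large as from 4 to 6. Of these values only the median of the ligands changed sign, to 0.01 without Lats1/2PanKO replicate 3. The cause of these shifts was not tested. With 3 mutant buds, depth and number limit what could be seen in members near 1 FPKM.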

Other observations

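Some genes of the wider pathway list varied widely among WT buds, and they are named here after their values were seen. *Gdf6*, a BMP-type ligand, was 17.1 and 18.0 FPKM in WT replicates 1 and 2, 5.34 to 8.69 FPKM in the other WT buds and 2.95 to 8.86 FPKM in Lats1/2PanKO buds. *Bmp4*, *Gdf10* and *Nog* were highest in the same pair of WT buds. *Junb*, an immediate early and TGF-beta response gene, was 9.29 FPKM in WT replicate 5 and 1.58 to 2.54 FPKM in the other WT buds. *Bhlhe40*, another response gene, was 15.8 FPKM in WT replicate 5 and 2.66 to 3.97 FPKM in the other WT buds. *Smad7* and *Smurf1* were highest in that bud too.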
